A study of Homo sapiens with 36 samples.

Results

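The response of A549 cells to C36, an RNA aptamer (a folded RNA selected to bind a target) that served as the control for an aptamer against EGFR, was measured against vehicle. The 6 libraries titled A549 with C36 or vehicle were taken from the 36 of the series, and the 13412 of 66366 genes with a mean of at least 1 FPKM over these 6 were tested. FPKM counts fragments scaled by transcript length and by library size, so levels of different genes can be compared per length. How library size was taken is not stated for these values. The study treated 4 lines of non-small cell lung cancer with MinE07, which binds EGFR, with C36 or with vehicle. A549 is a lung adenocarcinoma line, and the labels give it wild-type EGFR, whereas the other 3 lines carry EGFR mutations.

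All A549 groups were kept in DMEM with 1% serum during treatment and were collected after 24 h. The C36 group received 3 µM of an extended form of C36, and the vehicle group received the phosphate-buffered saline with magnesium in which the aptamers had been folded. The MinE07 group of A549, an RNA of another sequence also given at 3 µM, is used here for comparison. Each group has 3 libraries, which the series record traces to biologically independent experiments, so the p-values measure the spread between those experiments in 1 cell line. No untreated group and no other dose enters the comparison.

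Cells recognise foreign RNA through endosomal Toll-like receptors and through cytosolic helicases such as RIG-I and MDA5, which switch on the factors IRF3 and NF-kB and so drive interferon-beta, the lambda interferons and inflammatory cytokines. Secreted interferons then act through JAK kinases and STAT proteins to raise the interferon-stimulated genes, a large set of antiviral effectors, many of which bind RNA themselves. Another sensor, the kinase PKR, slows translation by phosphorylating eIF2-alpha, a step shared with the pathway that induces ATF4 and its targets.

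The libraries had 13257 to 13427 genes above 1 FPKM. No read counts are given in the files. Depth relative to the first MinE07 library, read from the steps between low FPKM values, was 0.906, 0.958 and 1.02 in the C36 libraries and 1.31, 0.918 and 1.39 in the vehicle libraries. Whether depth bears on the results was not tested. Epithelial markers were present in the C36 and vehicle libraries, with KRT8 (an epithelial keratin) at 2850 to 3034 FPKM, KRT18 at 2163 to 2314 and CDH1 (E-cadherin) at 32.6 to 34.7. Markers of differentiated alveolar cells were mixed. NKX2-1 and the surfactant gene SFTPC were at most 0.0331 and 0.0444 FPKM in these 6 libraries. ABCA3 had a mean of 2.74 FPKM with C36 and 2.69 with vehicle, and LAMP3 was also among the tested genes. Of 22 markers of immune, endothelial and mesenchymal cells, 19 were under 1 FPKM in all 6 libraries and 5 were listed at 0 in all 6. On the first principal component (26.5% of the variance) vehicle replicates 1, 2 and 3 were at 27.2, -4.71 and 16.04, and the C36 libraries at -16.3 to -11.0.

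Limma called 819 of the 13412 tested genes at an adjusted p under 0.05 (6.11%), 497 higher with C36 (3.71%) and 322 lower (2.4%). Most of the changes were small, with a median absolute log2 change of 0.25 among the called genes. The change reached 1 on the log2 scale in 10 genes that rose and in 1 that fell. Of those 10, 7 were entries of interferon genes, and the others were CXCL10, PPP1R15A and EGR1. The libraries of the 2 groups did not overlap in any called gene, but this also held for 29.7% of all tested genes. The count depended on single libraries. It fell to 68 higher and 48 lower without C36 replicate 3, and to 114 and 81 without C36 replicate 2. Without vehicle replicate 1 it was 719 and 355. Leaving out vehicle replicate 3 gave 167 and 105, vehicle replicate 2 gave 251 and 230, and C36 replicate 1 gave 234 and 130. The MinE07 libraries enter only through the spread, and with just the 6 C36 and vehicle libraries in the fit 189 genes were higher and 138 lower.

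**Figure D1:**
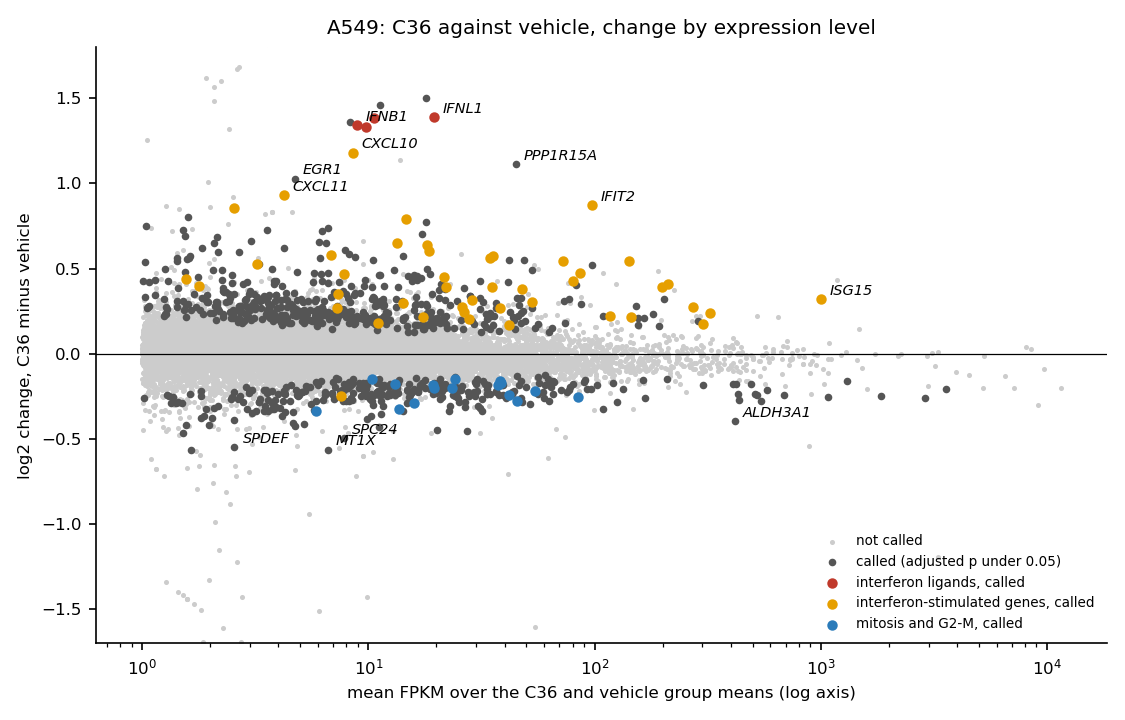
Log2 change (C36 minus vehicle, on the scale of log2(FPKM + 0.5)) of each tested gene in A549 against its mean FPKM on a log axis, with called genes dark and called members of 3 gene lists in colour. The 4 interferon ligands in colour lie between 1.33 and 1.39, the called mitosis genes lie between -0.34 and -0.15, and 61 genes outside the axis range, 1 of them called, are not drawn.

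The interferon ligands were the genes that rose most. IFNB1, which encodes interferon-beta, was at 9.71, 13.6 and 15.9 FPKM in the C36 libraries, 5.02, 4.71 and 4.5 in the vehicle libraries and 9.79, 8.25 and 8.86 in the MinE07 libraries. Each C36 library was well above the highest vehicle library, and the vehicle libraries already held the transcript. The log2 change was 1.34 ± 0.15 (standard error) with an adjusted p of 0.00604 in limma, a ratio of means of 2.75. The bases before the IFNB1 start are shown because they hold the classical enhancer of this gene. They come from RefSeq (GRCh38.p14, chr9:21077943-21078192, minus strand, 5′ to 3′), with capitals marking a match to the NF-kB motif (GGGA, 2 bases of any kind, TTCC), 66 bases before the start.
IFNB1: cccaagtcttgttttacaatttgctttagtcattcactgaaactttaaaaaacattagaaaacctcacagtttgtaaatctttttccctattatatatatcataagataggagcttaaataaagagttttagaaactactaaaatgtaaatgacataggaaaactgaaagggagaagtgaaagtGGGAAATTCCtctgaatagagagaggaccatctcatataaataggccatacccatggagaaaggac

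The lambda interferons (type III, which act mainly on epithelial cells) rose to the same degree. IFNL1 was at 23.2, 28.7 and 33.4 FPKM with C36 and at 12.9, 9.71 and 9.02 with vehicle, a log2 change of 1.39 ± 0.17 (adjusted p 0.00748, limma). IFNL3 was at 14.1, 15.8 and 16.6 FPKM against 6.88, 5.61 and 4.57, and rose by 1.38 ± 0.13 (adjusted p 0.00383). IFNL2 was at 11.9, 13.7 and 16.7 against 6.73, 5.23 and 4.12, and rose by 1.33 ± 0.17 (adjusted p 0.00797). For all 3 genes the lowest C36 library was above the highest vehicle library. The files also carry a further entry for each of the 3, which rose by 1.5 (IFNL1-2), 1.46 (IFNL3-2) and 1.36 (IFNL2-2). IFNL2 and IFNL3 are near-identical copies, so the split of fragments between them, and between the paired entries, is uncertain. Among the C36 libraries, replicate 1 was the lowest and replicate 3 the highest for these 6 entries and for IFNB1.

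Of the 10 interferon genes listed, 4 passed the filter on low values, and 4 of 4 rose, against 3.71% of all tested genes. Each of the 4 kept its call whichever of the 6 libraries was left out. The 6 below the filter were IFNL4, at 0.628 to 0.65 FPKM with C36 and 0.26 to 0.274 with vehicle, IFNA1, IFNA2 and IFNE, each at most 0.303 in all 6 libraries, and IFNK and IFNG, which were listed at 0 in all 6. In bulk RNA, more transcript in every cell and more cells that make it cannot be told apart.

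**Figure D2:**
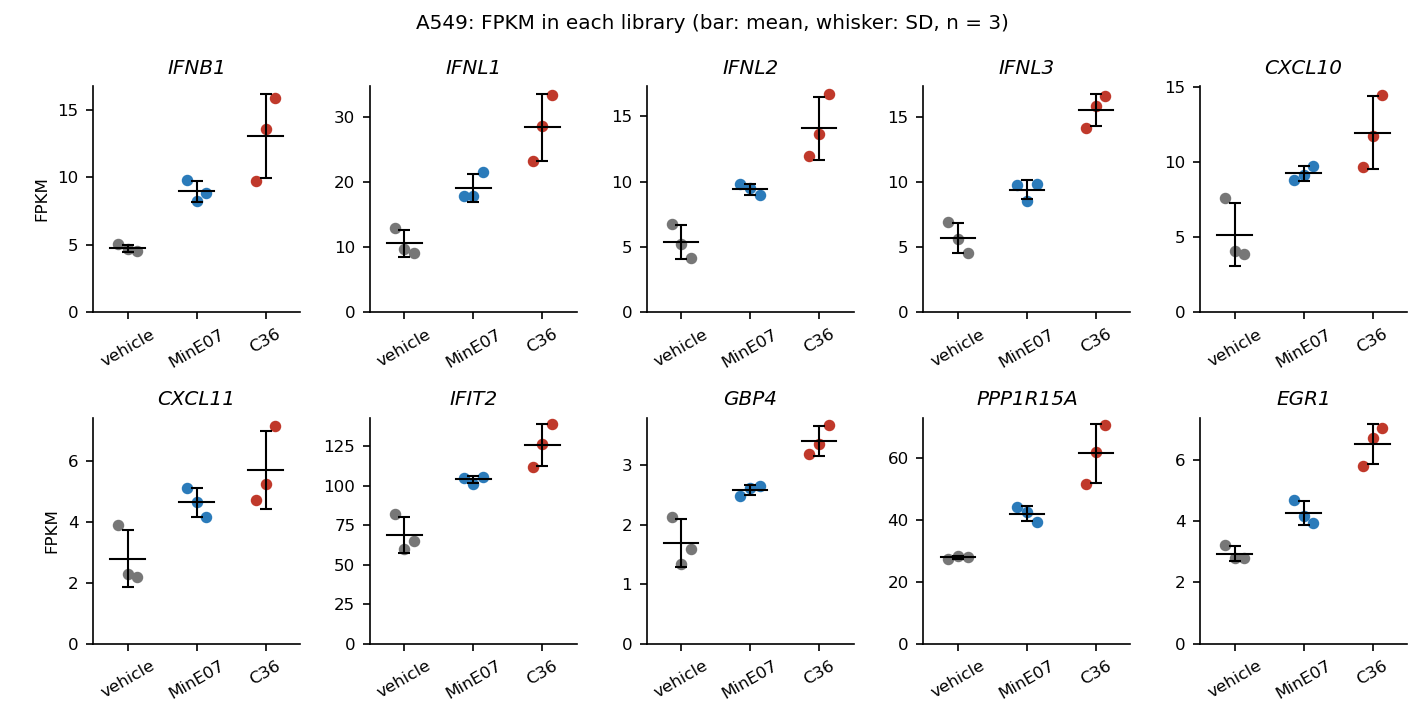
FPKM of 10 genes in each A549 library by treatment (points, libraries; bars, mean; whiskers, SD, n = 3), with each y axis starting at 0. In each panel the 3 C36 points lie above the 3 vehicle points, and IFNB1 reaches 9.79 FPKM with MinE07 and 15.9 with C36.

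The interferon-stimulated genes were higher as a broad group, by less than the ligands. Of 76 listed, 75 were tested, and 43 rose and 1 fell (58.7% of those tested were called, against 6.11% of all genes). The median log2 change over the tested members was 0.24, against 0.01 over all tested genes, and 72 of the 75 were higher with C36 before any test. IFIT2, an antiviral protein that binds RNA, was at 112, 126 and 139 FPKM with C36 and at 81.9, 59.8 and 65.1 with vehicle, a log2 change of 0.87 ± 0.11 (adjusted p 0.00709, limma). GBP4, a guanylate-binding protein, was at 3.19, 3.35 and 3.68 against 2.13, 1.33 and 1.59, and rose by 0.85 ± 0.11 (adjusted p 0.00604). RSAD2, which encodes viperin, was at 21.3, 21.7 and 23.7 against 16.7, 12.7 and 13.2, and rose by 0.64 ± 0.09 (adjusted p 0.00748). In each of these the first vehicle library was the highest of its group and still lay below all 3 C36 libraries.

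Many members were abundant without the aptamer. ISG15, a ubiquitin-like modifier, was at 990, 814 and 871 FPKM in the vehicle libraries and at 1025, 1131 and 1182 with C36, and rose by 0.32 ± 0.08 (adjusted p 0.0427, limma). MX1, a dynamin-like antiviral GTPase, was at 142, 127 and 135 with vehicle and 157, 152 and 158 with C36, and rose by 0.21 (adjusted p 0.0261). IFIT1 was at 298, 233 and 246 with vehicle and 290, 304 and 309 with C36, so that the groups overlapped, and its log2 difference of 0.22 did not pass the test (adjusted p 0.121). Among the rest, OASL rose by 0.54, MX2 by 0.58, GBP1 by 0.65, OAS2 by 0.47, PARP10 by 0.39 and HELZ2 by 0.38. HERC6, at 7.11, 6.93 and 6.62 FPKM with C36 against 8.83, 7.54 and 8.46, was the member that fell (-0.25, adjusted p 0.0344), whereas HERC5, the ligase that attaches ISG15, rose by 0.31. The call of HERC6 was lost when any of the 6 libraries other than vehicle replicate 2 was left out (adjusted p up to 0.136, limma).

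CXCL10 and CXCL11, chemokines that attract T cells through CXCR3, had the largest differences on the list and the widest spread. CXCL10 was at 9.65, 11.8 and 14.5 FPKM with C36 and at 7.62, 4.05 and 3.85 with vehicle, a log2 change of 1.18 ± 0.26 (adjusted p 0.0459, limma). CXCL11 was at 4.73, 5.24 and 7.16 against 3.88, 2.29 and 2.20, and rose by 0.93 ± 0.21 (adjusted p 0.0471). The groups did not overlap in either gene, but both calls were lost when any of the 6 libraries other than vehicle replicate 1 was left out (adjusted p up to 0.146 for CXCL10 and 0.130 for CXCL11).

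The level of the whole list differed between the vehicle libraries. Relative to their mean, the mean log2 level of the 75 genes was 0.14 in vehicle replicate 1, -0.10 in replicate 2 and -0.04 in replicate 3, and 0.26, 0.30 and 0.36 in the C36 libraries. The 43 calls became 55 without vehicle replicate 1. They became 6 without C36 replicate 3, 10 without C36 replicate 2 and 25 without C36 replicate 1, and 16 and 21 without vehicle replicates 3 and 2. IFIT2, GBP4, RSAD2, OASL, PARP10 and TYMP kept their calls without any 1 of the 6.

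**Figure D3:**
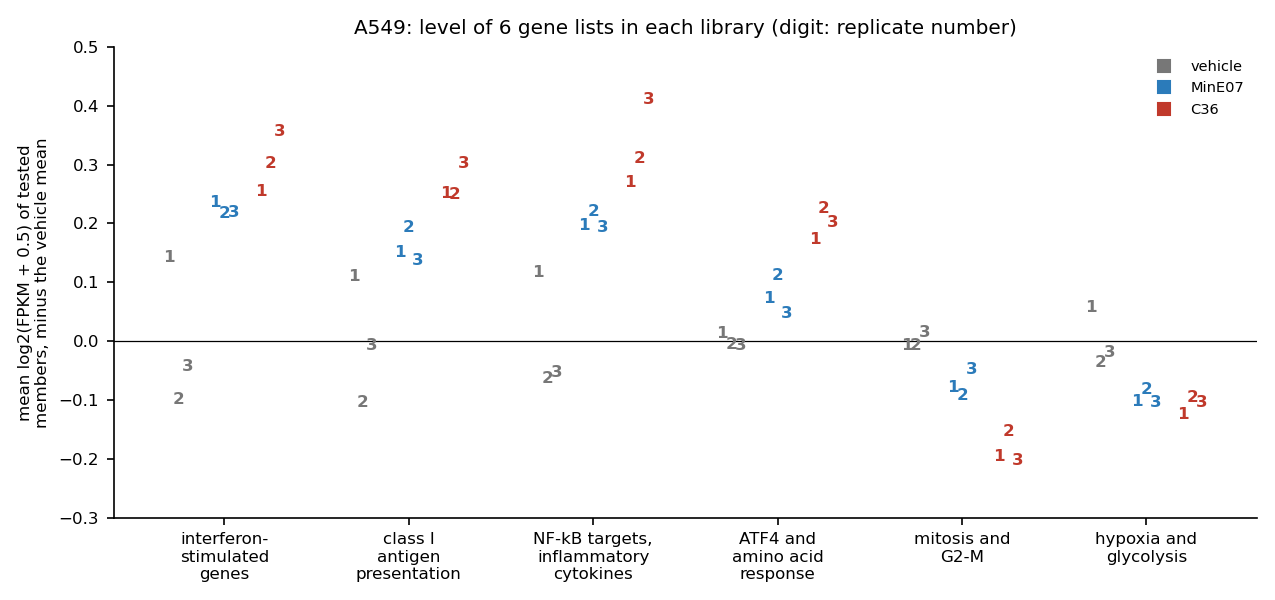
Mean log2(FPKM + 0.5) of the tested members of 6 gene lists in each A549 library, minus the mean of the 3 vehicle libraries, with digits giving the replicate number and colour the treatment. The 3 C36 libraries lie outside the vehicle range on each list, and vehicle replicate 1 is the highest vehicle library on the interferon-stimulated (0.14), class I (0.11) and NF-kB (0.12) lists.

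Promoters are shown for the 3 interferon-stimulated genes with the largest rise that have an entry in the RefSeq promoter table (GRCh38.p14), 250 bases before the start, 5′ to 3′ on the gene's strand. IFIT2 has none. Capitals mark matches, on either strand and with no overlap between motifs, to the interferon-stimulated response element (ISRE: GAAA, 2 bases of any kind, GAAA), to the NF-kB motif given above and, by its name, to the CArG box bound by serum response factor. CXCL10 (chr4:76023498-76023747, minus strand) has an ISRE match 221 bases and an NF-kB match 177 bases before the start. CXCL11 (chr4:76036071-76036320, minus strand) has an NF-kB match at 76 and a CArG box at 62. GBP4 (chr1:89198943-89199192, minus strand) has an NF-kB match at 45.
CXCL10: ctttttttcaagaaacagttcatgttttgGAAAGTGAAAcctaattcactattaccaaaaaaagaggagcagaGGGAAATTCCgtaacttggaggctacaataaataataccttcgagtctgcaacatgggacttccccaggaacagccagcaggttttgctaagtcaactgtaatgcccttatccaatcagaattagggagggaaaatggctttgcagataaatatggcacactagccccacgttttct
CXCL11: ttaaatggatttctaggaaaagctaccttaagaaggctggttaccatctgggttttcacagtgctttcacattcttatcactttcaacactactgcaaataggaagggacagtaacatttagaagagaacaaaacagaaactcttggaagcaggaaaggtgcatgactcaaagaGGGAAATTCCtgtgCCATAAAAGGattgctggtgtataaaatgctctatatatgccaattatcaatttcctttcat
GBP4: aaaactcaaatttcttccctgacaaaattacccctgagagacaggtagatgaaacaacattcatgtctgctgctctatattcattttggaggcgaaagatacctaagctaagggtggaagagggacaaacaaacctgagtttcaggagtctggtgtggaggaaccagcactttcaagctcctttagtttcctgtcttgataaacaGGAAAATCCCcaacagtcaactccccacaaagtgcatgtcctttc

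An ISRE match stood in 3.07% of all 27303 promoters of this length and in 29 of the 58 listed interferon-stimulated genes with an entry (50%). Among the 43 that rose, 27 had an entry and 13 of these held a match (48.1%), so the share among the called members was close to that of the whole list. The NF-kB motif stood in 1.42% of all promoters and in 11 of 26 listed NF-kB target genes (42.3%). A match is a description of the letters in this window.

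The RNA sensors and their adaptors differed less. Of 30 listed, 24 were tested, 6 rose (25%, against 3.71% of all tested genes) and none fell. The median log2 change was 0.11. TLR7, TLR8 and TLR9, the endosomal sensors of single-stranded nucleic acid, were at most 0.0902 FPKM in all 6 libraries. TLR3, the endosomal sensor of double-stranded RNA, was at 6.59, 6.43 and 6.57 FPKM with C36 and 6.17, 4.88 and 5.01 with vehicle, a log2 difference of 0.27 that did not pass the test (adjusted p 0.0603, limma). RIGI, which encodes RIG-I, was at 53.8, 56.0 and 57.8 against 53.4, 43.1 and 46.1 and did not pass it either (adjusted p 0.0873). IFIH1, which encodes MDA5, rose by 0.27 from 38.3, 31.6 and 33.8 to 39.4, 42.2 and 43.5 FPKM (adjusted p 0.0425), and DHX58, which encodes LGP2, by 0.44 (adjusted p 0.0420). The other calls were OAS1, OAS2, the Toll-like receptor adaptor TICAM1 and ZNFX1, a helicase that binds viral RNA. EIF2AK2, which encodes PKR, was at 46.1 to 48.6 FPKM with C36 and 42.5 to 44.5 with vehicle (log2 difference 0.10, adjusted p 0.171). No call on this list was left without C36 replicate 3, and 1 or 2 were left without any other library but vehicle replicate 1.

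Among interferon receptors, JAK kinases, STAT and IRF factors and their feedback regulators, 4 of 21 tested genes rose and none fell. The share that rose was 19%, against 3.71% of all tested genes. IRF1, a transcription factor of interferon responses, was at 22.9, 24.5 and 24.4 FPKM with C36 and at 20.0, 17.4 and 16.5 with vehicle, a log2 change of 0.41 ± 0.06 (adjusted p 0.00926, limma). The lowest C36 library was above the highest vehicle library. The adjusted p of IRF1 was 0.0565 without C36 replicate 3 and 0.0613 with no filter on low values (limma). SOCS3, an inhibitor of cytokine receptor signalling, rose by 0.40, and USP18, which removes ISG15 and restrains the interferon receptor, by 0.17. SOCS3 kept its call whichever library was left out, 1 call was left without C36 replicate 3 and 2 without C36 replicate 2, and 8 genes were called without vehicle replicate 1. IFNLR1, the specific receptor chain for lambda interferons, was below the filter at 0.573 to 0.653 FPKM.

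Class I antigen presentation genes were shifted in the same direction, with a median of 0.27, but 6 of 20 were called, all higher. That was 30%, against 3.71% of all tested genes. NLRC5, the transactivator of class I genes, was at 7.47, 7.95 and 8.04 FPKM with C36 and 5.35, 5.55 and 5.55 with vehicle, and rose by 0.48 ± 0.06 (adjusted p 0.00520, limma). This call was kept whichever library was left out. HLA-E, HLA-F, TAP1 and TAP2, which form the peptide transporter, and ERAP1, which trims peptides, rose by 0.20 to 0.46, and each of these 5 calls was lost without C36 replicate 2 or 3. The list had 12 calls without vehicle replicate 1 and 1 or 2 without any of the other 5 libraries. B2M, the light chain, was at 677, 691 and 718 FPKM against 705, 532 and 570, with overlapping groups. The HLA genes are highly similar to each other and are listed under several entries, so their individual values are uncertain.

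Targets of NF-kB and inflammatory cytokines rose in 17 of 28 tested members (60.7%, against 3.71% of all tested genes). None fell, and the median was 0.30. TNFAIP3, the A20 protein that restrains NF-kB signalling, was at 7.1, 6.998 and 8.52 FPKM with C36 and at 4.73, 4.53 and 4.47 with vehicle, a log2 change of 0.66 ± 0.07 (adjusted p 0.00454, limma). CXCL8, which encodes the neutrophil chemokine interleukin-8, was at 47.9, 49.3 and 52.7 against 39.0, 32.1 and 31.2, and rose by 0.55 ± 0.09 (adjusted p 0.0109). CCL5, a chemokine for T cells and monocytes, was at 17.7, 21.0 and 26.1 against 16.1, 11.4 and 11.8, and rose by 0.70 ± 0.16 (adjusted p 0.0454). A further entry of this gene, CCL5-2, rose by 0.77 (adjusted p 0.0139, limma). In all 3 genes the C36 libraries were above the vehicle libraries, although in CCL5 the gap between the lowest C36 library and the highest vehicle library was small.

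The NF-kB subunit genes NFKB1, NFKB2 and RELB rose by 0.23, 0.43 and 0.29, and the inhibitor genes NFKBIA and NFKBIE by 0.33 and 0.35. The complement genes C3 and CFB rose by 0.41 and 0.65, and the acute phase gene SAA1 by 0.62. IL6 was below the filter at 0.45 to 0.61 FPKM with C36 and 0.294 to 0.359 with vehicle, and TNF was listed at 0 in all 6 libraries. TNFAIP3, TNFAIP2, NFKB2, C3 and SAA1 kept their calls whichever library was left out. The count of 17 became 22 without vehicle replicate 1, 5 without C36 replicate 3, 8 without C36 replicate 2 or vehicle replicate 3, and 11 without vehicle replicate 2.

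Immediate early genes, which respond to growth factor and stress kinases within minutes, were in part higher after 24 h. EGR1, a zinc finger transcription factor, was at 5.79, 6.71 and 7.03 FPKM with C36, 3.21, 2.81 and 2.78 with vehicle and 4.68, 4.17 and 3.94 with MinE07. The lowest C36 library was above every other A549 library, and the log2 change against vehicle was 1.03 ± 0.08 (adjusted p 0.00197, limma). The EGR1 promoter (chr5:138465229-138465478, plus strand) is shown for its 2 CArG boxes, in capitals, 105 and 83 bases before the start.
EGR1: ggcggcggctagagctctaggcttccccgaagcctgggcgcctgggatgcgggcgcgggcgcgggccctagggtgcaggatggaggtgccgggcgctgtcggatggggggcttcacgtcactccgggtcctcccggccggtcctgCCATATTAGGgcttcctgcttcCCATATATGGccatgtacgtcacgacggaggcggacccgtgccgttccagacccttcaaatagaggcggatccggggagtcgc

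A CArG box stood in 1.14% of all promoters. On the list of EGFR and MAP kinase output and immediate early genes, 8 of 26 tested members rose and none fell (median 0.09). The share that rose was 30.8%, against 3.71% of all tested genes. JUN was at 17.3, 17.9 and 18.5 FPKM against 12.8, 13.6 and 13.2 and rose by 0.42 ± 0.05 (adjusted p 0.00454), and ATF3, a stress-induced repressor, rose by 0.57 from 7.98, 6.52 and 6.41 to 10.2, 10.1 and 11.3. FOSL1, JUNB, IER2, SPRY4 and MYC rose by 0.13 to 0.34, and each of these 5 calls was lost without C36 replicate 2 or 3. The count was 3 without vehicle replicate 2 and 4 without vehicle replicate 3. FOS, at 11.8, 12.3 and 11.7 against 12.2, 10.6 and 11.7 FPKM, and DUSP6, a phosphatase induced by ERK, did not pass the test (log2 differences of 0.06 and 0.09, adjusted p 0.552 and 0.242).

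EGFR itself was at 19.2, 18 and 18.9 FPKM with C36 and 19.4, 20.3 and 19.9 with vehicle, a log2 difference of -0.08 (adjusted p 0.328, limma). ERBB3, the kinase-impaired partner of EGFR and ERBB2, was at 8.84, 8.81 and 8.61 with C36, 6.59, 6.502 and 6.89 with vehicle and 9.23, 8.23 and 8.29 with MinE07. It rose by 0.37 ± 0.05 against vehicle (adjusted p 0.00601) and kept its call whichever library was left out. ERBB2 differed by -0.05 (adjusted p 0.578).

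PPP1R15A, which encodes GADD34, the subunit that directs protein phosphatase 1 to eIF2-alpha and restores translation, was at 51.9, 62.2 and 70.7 FPKM with C36. It was at 27.4, 28.5 and 28.0 with vehicle and 44.2, 42.8 and 39.3 with MinE07. The C36 libraries did not overlap either of the other groups, and the log2 change against vehicle was 1.11 ± 0.10 (adjusted p 0.00197, limma).

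Targets of ATF4, the factor that is translated when eIF2-alpha is phosphorylated, rose in 12 of 24 members, and none fell (median 0.17). This was 50%, against 3.71% of all tested genes. DDIT3, which encodes CHOP, was at 15.9, 17.6 and 17.8 FPKM against 12.5, 11.0 and 10.6, and rose by 0.57 ± 0.06 (adjusted p 0.00454). CHAC1, a glutathione-degrading enzyme, was at 7.21, 8.76 and 8.20 against 5.39, 4.90 and 4.59, and rose by 0.65 ± 0.08 (adjusted p 0.00454). In both genes every C36 library exceeded every vehicle library. TRIB3, STC2, the serine synthesis enzyme PHGDH and the aminoacyl-tRNA synthetase genes AARS1, WARS1 and MARS1 rose by 0.17 to 0.36. ATF4 itself was at 198, 220 and 213 FPKM against 189, 180 and 180 and did not pass the test (log2 difference 0.20, adjusted p 0.0587). The count was 15 without vehicle replicate 1, 3 without C36 replicate 3, 4 without C36 replicate 2, 5 without vehicle replicate 3, and 7 without vehicle replicate 2 or C36 replicate 1. Limma called none of the 21 chaperone and folding stress genes (median 0.04). An unadjusted p under 0.05 was found for 6 of these 21, and for 3169 of all 13412 tested genes.

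Of 23 tested p53 targets, 6 rose and 1 fell (30.4% called, against 6.11% of all tested genes), with a median of 0.09. The cell cycle inhibitor CDKN1A was at 50.1, 51.8 and 51.3 FPKM against 42.9, 45.0 and 41.8, and rose by 0.24 ± 0.04 (adjusted p 0.0119, limma). BBC3, which encodes the pro-death protein PUMA, rose by 0.49, and GDF15, SESN2, GADD45A and the death receptor TNFRSF10B by 0.14 to 0.31. The repair gene DDB2 fell by 0.17, a call that was lost when any of the 6 libraries other than vehicle replicate 1 was left out. MDM2, at 17.97, 18.5 and 17.7 against 17.8, 16.6 and 16.5 FPKM, did not pass the test (log2 difference 0.09, adjusted p 0.1995). GDF15 and SESN2, which are also targets of ATF4, kept their calls whichever library was left out. Of the 6 that rose, 2 were left without C36 replicate 2 or 3, 3 without vehicle replicate 2 or 3 and 4 without C36 replicate 1.

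Mitosis genes fell together by a small amount. All 30 listed were tested, 16 fell and none rose (against 2.4% of all tested genes called lower), all 30 had a lower mean log2 level with C36, and the median was -0.18. DLGAP5, a spindle protein, was at 11.8, 12.3 and 11.96 FPKM with C36 and at 15.5, 14.6 and 15.5 with vehicle, a log2 change of -0.33 ± 0.04 (adjusted p 0.00454, limma). PLK1, a kinase of mitotic entry, was at 41.2, 42.7 and 39.5 against 50.6, 49.5 and 49.8, and fell by 0.28 (adjusted p 0.00604). CDC25C, the phosphatase that activates CDK1, was at 5.06, 5.32 and 5.07 against 6.63, 6.92 and 6.34, and fell by 0.34 (adjusted p 0.00601). These 3 genes, HMMR and BIRC5 kept their calls whichever library was left out, and 5 calls were left on the list without any 1 of the 3 C36 libraries or without vehicle replicate 3. MKI67, at 35.4, 34.2 and 34.6 against 25.7, 41.4 and 40.7 FPKM, varied more between vehicle libraries than between groups.

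Genes of DNA replication shifted less, with 5 of 35 called lower (14.3%, against 2.4% of all tested genes) and none higher. Their median was -0.10. RRM2 and RRM1, the ribonucleotide reductase subunits, fell by 0.20 and 0.16, TYMS, thymidylate synthase, by 0.20, POLE2, a polymerase epsilon subunit, by 0.34 and the licensing factor CDC6 by 0.15. None of the list was called without C36 replicate 1, 2 or 3, and 1 was called without vehicle replicate 3.

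Hypoxia and glycolysis genes fell in 9 of 28 tested members (32.1%, against 2.4% of all tested genes), and none rose (median -0.09). EGLN3, an oxygen-sensing prolyl hydroxylase, was at 8.68, 8.89 and 9.33 FPKM with C36 and at 12.1, 11.4 and 11.5 with vehicle, a log2 change of -0.36 ± 0.04 (adjusted p 0.00503, limma). SLC2A3, a glucose transporter, was at 53.9, 54.0 and 55.4 against 67.4, 63.4 and 65.0, and fell by 0.26 (adjusted p 0.00604). LDHA, lactate dehydrogenase, was at 406, 399 and 385 against 499, 446 and 459, and fell by 0.24 (adjusted p 0.0214). The groups were apart in these 3 genes. The other genes that fell were BNIP3L, PDK1, SLC2A1, GPI, PFKFB3 and PKM, by 0.16 to 0.27. The count was 3 without C36 replicate 2 or 3, 4 without vehicle replicate 3 and 5 without C36 replicate 1.

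Among targets of the antioxidant factor NRF2, 5 of 23 fell (21.7%, against 2.4% of all tested genes) and none rose (median -0.08). ALDH3A1, an aldehyde dehydrogenase, was at 361, 366 and 352 FPKM with C36, 459, 483 and 481 with vehicle and 362, 369 and 368 with MinE07. Its log2 change was -0.40 ± 0.04 (adjusted p 0.00197, limma). GCLC and GCLM, the subunits of the enzyme that starts glutathione synthesis, fell by 0.23 and 0.27, GPX2 by 0.24 and TXNRD1 by 0.18. NQO1, at 528 to 534 FPKM against 534 to 564, and HMOX1 differed by -0.04 and -0.08 and did not pass the test (adjusted p 0.515 and 0.181). The count of 5 became 2 without C36 replicate 2, C36 replicate 3 or vehicle replicate 3, and 3 without C36 replicate 1.

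The genes that fell most had low to moderate levels. SCARNA26A, a small Cajal body RNA, was listed at 0 in the 3 C36 and the 3 MinE07 libraries and at 3.03, 2.86 and 1.00 FPKM with vehicle, and no fold is given. It passed the filter on low values only through the vehicle group, and an FPKM of 0 can be a failed estimate. SPDEF, an epithelial transcription factor, was at 1.88, 1.86 and 2.20 against 3.04, 3.34 and 2.97 FPKM, and fell by 0.55 ± 0.06 (adjusted p 0.00470, limma). ITGB4, the integrin beta 4 chain of hemidesmosomes, was at 22.3, 24.1 and 22.2 against 28.4, 33.7 and 32.5, and fell by 0.45 ± 0.06 (adjusted p 0.00609). HPGD, which inactivates prostaglandins, was at 16.7, 16.9 and 17.0 against 25.9, 21.5 and 22.4, and fell by 0.45 ± 0.06 (adjusted p 0.00706). In these 3 genes each C36 library was below each vehicle library.

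DGCR6 and UPK3B fell by 0.43 and 0.42. SPDEF, ITGB4, HPGD, DGCR6 and UPK3B kept their calls whichever library was left out. MT1X, a metallothionein, at 5.80, 4.33 and 5.58 against 8.33, 8.63 and 6.91 FPKM, fell by 0.56, as did FSBP. SPC24, a kinetochore protein, fell by 0.49, the potassium channel gene KCNMA1 by 0.46, PRODH by 0.42 and the long non-coding RNA MIR31HG by 0.42. The calls of these 6 were each lost without at least 1 library, C36 replicate 2 or 3 among them.

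Several lists held few calls, at 4.17% to 7.14% of their tested members, near the 6.11% of all tested genes. In sterol and fatty acid synthesis 1 of 28 rose (HMGCS1, 0.15) and 1 fell (SCD, -0.18). In nucleoside salvage and breakdown 1 of 23 rose, TYMP, thymidine phosphorylase, which is also an interferon-stimulated gene, by 0.30. In MYC and ribosome biogenesis 1 of 24 rose (MYC itself, 0.13), and in endosomal and lysosomal RNA handling 1 of 17 (SQSTM1, 0.16). The calls of HMGCS1, SCD and MYC were lost when any of the 6 libraries other than vehicle replicate 1 was left out, and that of SQSTM1 when any of the 6 was. The TGF-beta, CCN and matrix list held more calls, 33.3% of its 21 tested genes, in both directions. Of these 21, 3 rose, PLAUR and CCN2 among them, and 4 fell (SERPINE2, TGFBI, TGFB2 and THBS1), with a median of 0.02. None of the 3 was called without C36 replicate 2 or 3 or vehicle replicate 2 or 3, and 2 were without C36 replicate 1. None of the 4 was called without C36 replicate 1, 2 or 3 or vehicle replicate 3, and 1 was without vehicle replicate 2. Among 10 tested identity genes, LAMP3, which is also on the interferon-stimulated list, rose by 0.79. CD68, a lysosomal protein used as a macrophage marker, rose by 0.40 from 80.7, 66.3 and 67.6 to 92.6, 93.6 and 96.6 FPKM. The summed level of the other 21 markers was 5.90 to 6.63 FPKM with C36 and 5.73 to 7.36 with vehicle, and PTPRC (CD45) was at most 0.0158 FPKM in all 6. The calls of CD68 and LAMP3 were lost without any 1 of the 3 C36 libraries.

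**Figure D4:**
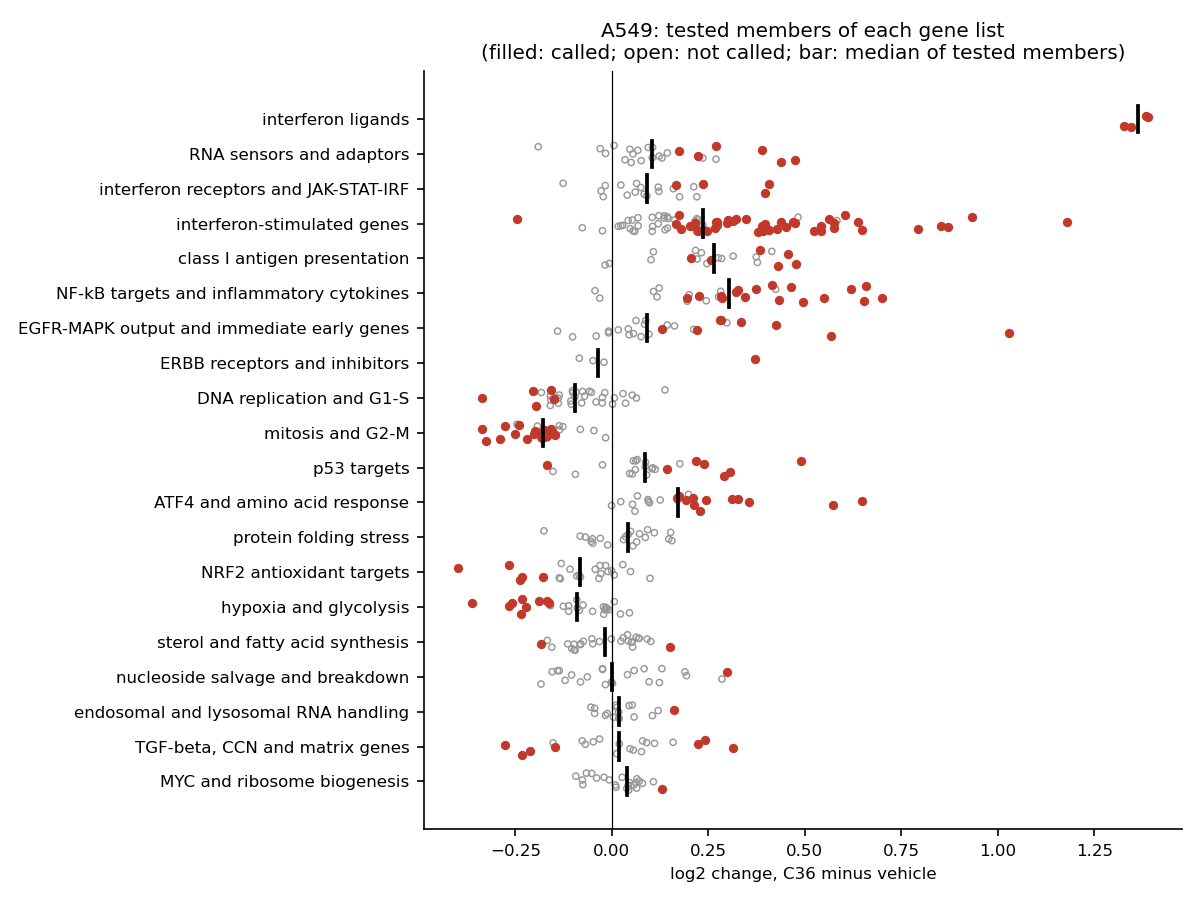
Log2 change (C36 minus vehicle) of each tested member of 20 gene lists in A549, filled where called and open where not, with a bar at the median of the tested members. Interferon ligands stand near 1.36, interferon-stimulated and NF-kB genes are shifted to the right (medians 0.24 and 0.30), and mitosis genes to the left (median -0.18).

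MinE07, which was given at the same dose and time, is set beside C36 here. Between MinE07 and C36, limma called 0 of 13412 genes (0%) and 1464 had an unadjusted p under 0.05. The smallest adjusted p was 0.164. Against vehicle, MinE07 gave 46 calls (0.343%), 25 higher and 21 lower. Both comparisons against vehicle use the same 3 vehicle libraries. The MinE07 libraries did not overlap the vehicle libraries in 18.4% of all tested genes and did not overlap the C36 libraries in 22.6%. The MinE07 mean lay between the C36 and vehicle means in 4 of the 4 interferon ligands, 36 of the 44 called interferon-stimulated genes, 17 of the 17 called NF-kB genes, 12 of the 12 called ATF4 targets, 15 of the 16 called mitosis genes and 7 of the 9 called hypoxia genes. C36 was among the groups that chose these genes, so they describe the order of the means only.

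MinE07 minus C36 was -0.49 ± 0.15 in IFNB1, -0.55 ± 0.17 in IFNL1, -0.53 ± 0.10 in PPP1R15A and -0.56 ± 0.08 in EGR1 on the log2 scale. The MinE07 libraries overlapped the C36 libraries in IFNB1, where the first C36 library was at 9.71 and the first MinE07 library at 9.79 FPKM, and did not overlap in IFNL1, PPP1R15A or EGR1. Limma's adjusted p values for these differences were 0.364, 0.362, 0.204 and 0.164. Other genes were close with both aptamers, among them ERBB3 (-0.03 ± 0.05) and ALDH3A1 (0.03 ± 0.04). The median difference was -0.04 over the tested interferon-stimulated genes and -0.55 over the interferon ligands.

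The response to C36 in A549 was tested against the mean response in the other 3 lines (H3255, H1975 and H820) in a fit of 24 C36 and vehicle libraries with 8 groups. The interaction was called for 772 of 14543 genes (5.31%), 450 higher in A549 (3.09%) and 322 lower (2.21%). Of these, 432 were also called in A549 alone. Medium differed with the line, since the other lines were kept in RPMI, and cannot be told apart from it. The lambda interferons and IFNB1 had group means of at most 0.0971 FPKM with C36 or vehicle in each of the other lines. They passed the filter on low values only through A549, so their interaction mostly repeats the change in A549 and is given no test.

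PPP1R15A, by contrast, was expressed in every line. Its vehicle mean was 25.01 FPKM in H3255, 17.4 in H1975 and 37.5 in H820, and C36 changed it by 0.15, 0.11 and 0.09, none of which passed the test. The interaction was 1.00 ± 0.08 (adjusted p 9.73e-08, limma). EGR1 rose in H1975 by 0.40 and in H3255 by 0.24, and its interaction was 0.83 ± 0.07 (adjusted p 3.49e-07). TNFAIP3 (0.61), CXCL8 (0.68), ERBB3 (0.38) and CDKN1A (0.35) also had a higher response in A549.

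Interferon-stimulated genes were mixed in this test. The interaction was called higher in A549 for 27 of 74 tested members and lower for 1, against 3.09% and 2.21% of all genes. A member high in A549 could pass the filter on low values through A549 alone, and how many did so was not counted. The counts therefore describe the list and are no test of it. The median change over the list was 0.20 in H3255, -0.02 in H1975 and -0.04 in H820, against 0.24 in A549. In H3255, ISG15 rose by 1.25, from a mean of 7.30 to 18.2 FPKM, IFIT2 by 1.58, from 0.181 to 1.54, and OASL by 1.5, from 0.0366 to 1.02. The ISG15 interaction was -0.10 ± 0.13 and did not pass the test (adjusted p 0.753). That of IFIT2, which was near 0 FPKM in H3255 with vehicle, was 0.39 ± 0.09 and is given no test. IFIT2 rose by less in A549 than in H3255, and its interaction is against the mean of the other lines. In H1975 and H820 the changes in ISG15 were 0.07 and -0.06 from vehicle means of 84.4 and 60.8 FPKM, against a vehicle mean of 892 in A549.

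Among the genes that fell, SPDEF also fell in H820 (-0.64), and its interaction was -0.38 ± 0.07 (adjusted p 0.00405, limma). ITGB4 had an interaction of -0.37 ± 0.05 (adjusted p 4.36e-04) with changes of -0.07 and -0.17 in H1975 and H820, neither of them called. DLGAP5 fell in H3255 by 0.20 and in H820 by 0.15 as well as in A549. Of the mitosis genes, 8 of 30 had a lower response in A549, against 2.21% of all genes, and none a higher one. The median change over this list was -0.18 in A549, -0.08 in H3255, -0.05 in H1975 and -0.06 in H820. Hypoxia and glycolysis genes had a like median in A549 (-0.09), H3255 (-0.09) and H1975 (-0.09), and -0.05 in H820. Of these genes, 1 of 30 had a lower response in A549.

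**Figure D5:**
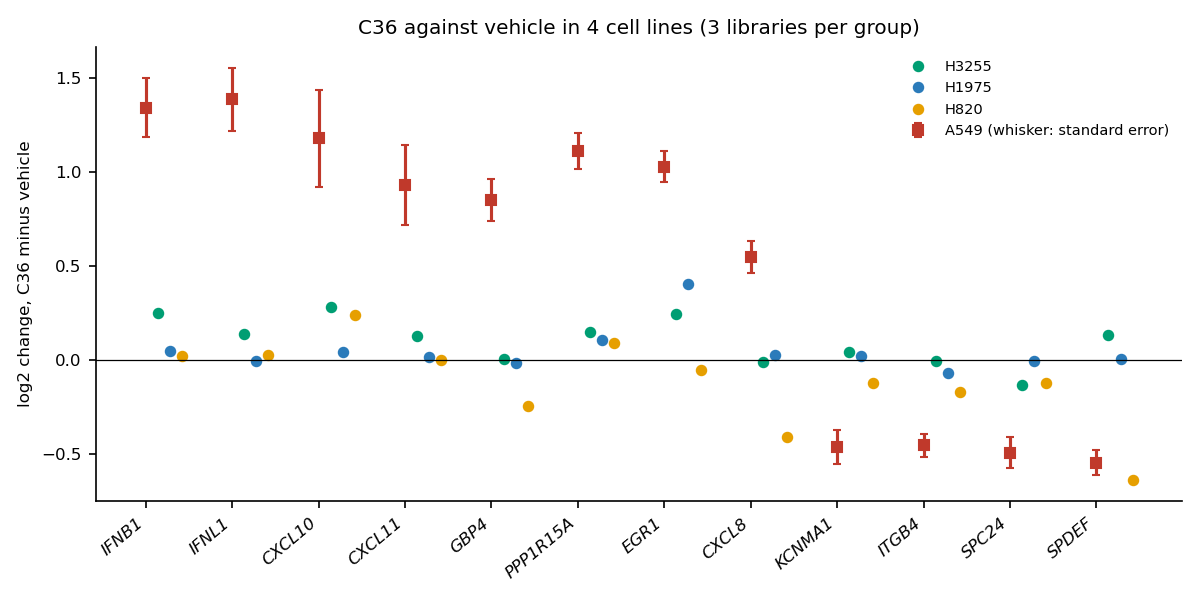
Log2 change (C36 minus vehicle, log2(FPKM + 0.5)) of 12 genes in A549 (squares; whiskers, standard error) and in H3255, H1975 and H820 (circles), with 3 libraries per group. IFNB1 and IFNL1 lie above 1.3 in A549 and at most at 0.25 in the other lines, whereas SPDEF is at -0.55 in A549 and -0.64 in H820.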

How the data were processed

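The authors deposited 1 table of FPKM per library. The submitters' processing notes name HISAT2 and Cuffdiff and the builds GRCh38.p12 and hg38, without their roles or versions, and per the labels' protocols the libraries were stranded, poly-A selected and sequenced at 100 bases from both ends. Entries with no gene name and repeated names were left out, and the 7486 entries marked as further copies of a gene were kept as genes of their own. An FPKM of 0 can be a failed estimate. Values were fitted as log2(FPKM + 0.5), so a fold change understates that of low genes, with limma's trend and robust moderation over the 9 A549 libraries (3 group means), using limma 3.58.1, R 4.3.3 and statmod 1.5.0. A gene was called at a two-sided Benjamini-Hochberg adjusted p under 0.05 over all 13412 genes tested. The code was tested on simulated data. Tables and plots used Python 3.11.15, pandas 2.3.3, numpy 2.4.6 and matplotlib 3.10.9.

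The comparison, its members and the 22 gene lists were chosen with earlier results of these data known. The genes named are members of these lists, the 12 with the largest called change in each direction whose libraries did not overlap, and the 5 largest in each direction for the difference between lines. The promoter of IFNB1 was added after its values were seen. Relative depth was computed in the 9 A549 libraries as the commonest ratio of low FPKM values, and pairs of libraries closed to within 0.0055 on the log2 scale. Read numbers are unknown, so values carry no counting error and a 0 has no upper limit. Same-numbered libraries did not deviate together (correlations of -0.084, -0.081 and 0.062), so the replicate number was not used as a block.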

Additional observations from a re-analysis of the deposited data

Results flagged for a closer look

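The response to C36 differed between A549 and the mean of the other 3 lines in 772 genes by limma's interaction test at an adjusted p under 0.05. The differences that were largest in the direction of A549 were those of interferon lambda entries, at 1.45 for IFNL1-2, 1.44 for IFNL3-2, 1.35 for IFNL2-2, 1.35 for IFNL3 and 1.34 for IFNL1 on the log2 scale. Levels were near 0 FPKM in the other lines, where the median change over the listed interferon ligands was 0.11 (H3255), 0.005 (H1975) and 0.016 (H820). The lambda entries passed the filter on low values only through A549, so these values mostly repeat the change in A549. In the opposite direction the largest were -0.58 for RPS4XP11, -0.47 for TMEM238, -0.44 for H2AZP3, -0.44 for KCNMA1 and -0.41 for LOC105378678. RPS4XP11 and H2AZP3, named as pseudogenes of a ribosomal protein and a histone gene, were not called in A549 alone (adjusted p 0.170 and 0.426), share sequence with their parent genes and are uncertain. LOC105378678 was below the filter in A549, at 0.0367 to 0.177 FPKM with C36 and 0.267 to 0.350 with vehicle.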

How the results depend on the processing

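No log2 change of the 164 named genes and called list members changed sign under any alternative in which it was tested. The 497 higher and 322 lower genes became 92 and 74 with no filter on low values, 189 and 138 with the 6 libraries only, and 1440 and 904 with all 36 libraries in the fit. The replicate block gave 181 and 114, and 413 in place of 772 for the difference between lines. Same-numbered libraries did not deviate together, but with 3 libraries per group this cannot settle whether the numbers pair the libraries. A fit of the 6 libraries without trend or robust moderation, chosen after seeing the data, gave 61 and 36. Leaving out 1 library gave 68 to 719 higher, 48 to 355 lower and 411 to 853 for the difference between lines, where A549 C36 replicate 2 gave 478. The cause was not tested. Without MinE07 replicate 1 the counts were 317 and 209. Other pseudocounts and rescaling by medians of ratios kept these 3 totals within 1.5 times, as leaving out further copies and plain moderation did for the 2 counts in A549, the only ones they were run for. Rescaling gave 475 higher and 431 lower in A549. The share of calls that were higher was then 52.4%, against 60.7% in the main fit, so the excess of rises depended on the scaling. Of the 164, 163 kept their call after rescaling, 80 with the block, 85 with the 6 libraries only, 47 without C36 replicate 3 and 155 without vehicle replicate 1. Absolute depth is unknown, so calls at low FPKM have no counting error.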

Other observations

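Several genes outside the lists, chosen after their values were seen, rose with C36. CD274, which encodes the immune checkpoint ligand PD-L1, was at 4.18, 4.65 and 4.74 FPKM with C36 and at 3.19, 2.25 and 2.26 with vehicle, a log2 change of 0.72 ± 0.13 (adjusted p 0.0177, limma). IDO1, which degrades tryptophan, was at 1.5, 2.12 and 2.4 against 1.3, 0.866 and 0.87, and rose by 0.73. Both calls were lost without C36 replicate 2 or 3 or vehicle replicate 2 or 3. CEACAM1, an adhesion receptor, was at 8.03, 7.90 and 9.37 against 5.24, 4.74 and 4.57, and rose by 0.74 ± 0.08 (adjusted p 0.00454). IL18BP, a secreted inhibitor of interleukin-18, was at 4.01, 3.53 and 3.95 against 2.54, 1.93 and 2.26, and rose by 0.66 (adjusted p 0.00601). PLEKHA4 rose by 0.72, PIK3AP1 by 0.62 and NTNG2 by 0.60. The calls of these last 5 genes were kept whichever of the 6 libraries was left out. TNFSF10, the death ligand TRAIL, rose by 0.61 (adjusted p 0.0473), a call that was lost when any of the 6 libraries other than vehicle replicate 1 was left out.

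Of 12 mRNAs of the mitochondrial genome other than COX1, 4 fell with C36 (ND2, ND6, CYTB and ATP6, by 0.21 to 0.26) and none rose, against 2.4% of all tested genes called lower. All 12 had a lower mean log2 level, and the C36 and vehicle libraries did not overlap in 11, against 29.7% of all tested genes. Their median change was -0.20. The 12 together made up 13.0%, 11.8% and 12.2% of the summed FPKM in the C36 libraries and 13.4%, 13.5% and 13.9% in the vehicle libraries. COX1 was listed at 0 in vehicle replicates 1 and 3 and at 9046 to 10350 FPKM in the 4 other C36 and vehicle libraries, so it was left out of this count. It stayed in the summed FPKM, so the shares in vehicle replicates 1 and 3 were taken over a sum without COX1 and are not like for like.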
